A study of Homo sapiens with 6 samples.

Results

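The mitotic kinases CDK1, PLK1, AURKA, AURKB, BUB1, BUB1B and TTK and the centromere proteins CENPA, CENPE and CENPF were followed in human pancreatic cancer cells made to overexpress the RNA helicase DDX18, which is known for its work in ribosome biogenesis. These 10 genes were chosen by name from the 58302 genes of the deposited table, with earlier results of these data known. All 10 were expressed enough to be tested. The cells were Hs766T, an established pancreatic tumour line, by the series title and the sample labels; the sample titles spell it HS7666T. The labels give 3 libraries the genotype ex-DDX18 and call them DDX18 overexpressed, and give 3 libraries the genotype WT and call them control, with plvx in their names. No dose, time or culture condition is given in the sources used here. Nor do they say whether either line is a clone. The design text speaks of sequencing repeated 3 times per group and names no separate cultures, so the spread behind every p-value is that between these libraries and may be technical. The question, by the title, is what raised DDX18 does to the levels of other molecules in these cells.

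These genes encode the machinery that takes a cell through mitosis. CDK1 bound to cyclin B starts mitosis, PLK1 and Aurora kinase A mature the centrosomes and build the spindle, and Aurora kinase B releases wrongly attached microtubules. TTK, BUB1 and the BUB1B product BUBR1 run the spindle checkpoint, which holds back anaphase until every chromosome is attached. CENPA is the histone H3 variant that marks the centromere, CENPE is a kinesin that moves chromosomes to the spindle equator, and CENPF is a large coiled-coil protein of the outer kinetochore. Their mRNAs are periodic: they build up in G2 and mitosis, when the MYBL2 and FOXM1 complexes activate promoters that the DREAM complex represses in resting cells. In a bulk library a smaller share of cells in G2 and mitosis and less RNA per cell cannot be told apart.

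The promoter element best known for this timing is the cell-cycle homology region, with the letters TTTGAA. It was searched for on both strands, together with the NF-Y box CCAAT, in windows of 300 bases (250 before and 50 after the annotated start, RefSeq, GRCh38.p14). A window was held for 8 of the 10 genes, with 2 starts each for CDK1 and AURKB, and none was used here for AURKA and TTK. TTTGAA occurred in the windows of 5 of the 8 genes (CDK1, PLK1, BUB1B, CENPA and CENPF) and in 15.2% of all 35116 windows. CCAAT occurred in 6 of the 8 genes and in 34.6% of all windows. The counts are of genes with a match in any of their windows, and the percentages are of single windows. The units are thus unlike. The sites are shown because these 5 genes include both directions of difference described below. Capitals mark TTTGAA and, where it falls in the same stretch, CCAAT or its complement ATTGG. The sequences read 5′ to 3′ on the strand of the gene, with positions counted from the annotated RefSeq start. In GENCODE 29 the stretches of CENPA, PLK1, BUB1B and the second start of CDK1 overlap exons of the same gene. A negative position there does not mean that the bases lie outside the annotated gene.
CENPA, chr2:26786026-26786055, plus strand, -30 to -1: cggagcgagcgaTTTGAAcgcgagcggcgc
PLK1, chr16:23678848-23678877, plus strand, -41 to -12: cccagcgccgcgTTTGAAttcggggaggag
BUB1B, chr15:40161034-40161063, plus strand, -35 to -6: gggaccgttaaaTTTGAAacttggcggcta
CDK1, second start, chr10:60778453-60778482, plus strand, -25 to 5: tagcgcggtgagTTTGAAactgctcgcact
CDK1, second start, chr10:60778397-60778426, plus strand, -81 to -52: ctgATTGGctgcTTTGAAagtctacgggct
CDK1, first start, chr10:60778158-60778187, plus strand, -173 to -144: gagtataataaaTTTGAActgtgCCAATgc
CENPF, chr1:214603223-214603244, plus strand, 29 to 50: ggctgcgggcagTTTGAAttag
CENPA, PLK1, BUB1B and the second start of CDK1 each had a TTTGAA between -29 and -8, whereas that of CENPF lay after the start. CENPF had no TTTGAA before its start but 3 CCAAT boxes, 2 on its own strand and 1 on the other, in the 150 bases shown next.
CENPF, chr1:214603045-214603194, plus strand, -150 to -1: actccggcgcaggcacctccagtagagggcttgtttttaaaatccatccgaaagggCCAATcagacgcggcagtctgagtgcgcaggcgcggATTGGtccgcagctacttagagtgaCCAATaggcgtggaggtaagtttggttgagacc
The windows of AURKB, BUB1 and CENPE held no TTTGAA, and that of CENPE no CCAAT either. A match is a description of the letters and not evidence of binding.

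Libraries were of like depth, with 15911875 to 16207995 counts and 22132 to 23286 genes detected. plvx replicate 2 had the most genes detected, and the other 5 libraries lay between 22132 and 22353. DDX18 itself measured 187, 197 and 177 CPM (reads counted for the gene relative to the TMM-scaled library size) in the DDX18 libraries and 89.4, 82.4 and 98.3 CPM in the controls, a 2.08-fold rise (adjusted p = 0.00982). Its adjusted p was above the threshold of 0.05 without DDX18 replicate 2 (0.0544) and without plvx replicate 2 (0.0643). Keratin genes marked the cells as epithelial in part: KRT7, KRT8 and KRT18 each lay at 511.6 CPM or more in every library, but KRT19 was at most 0.251 CPM, CDH1 2.5 CPM and EPCAM 7.93 CPM. Of 5 acinar genes, 4 had 0 counts in every library (PRSS1 among them) and BHLHA15 had 21 to 38. Of 4 islet genes, 3 had 0 counts (INS among them) and CHGA at most 1. Of 5 leukocyte genes, 3 had 0 counts, PTPRC had 0 in 5 of 6 libraries and CD14 had 10 to 26. Of 4 endothelial genes, PECAM1 had 0 counts, CDH5 and CLDN5 at most 4, and VWF had 67 to 118. Of 5 fibroblast genes, COL1A2 had 0 counts and the list summed to 168 to 173 CPM with DDX18 and 162 to 173 CPM in the controls. Within it the groups did not overlap for COL1A1, lower with DDX18 (51.5 to 57.7 against 62.6 to 71.3 CPM), and PDGFRB, higher with DDX18 (103 to 107 against 87.0 to 94.95 CPM), with adjusted p of 0.814 and 0.841. Among the epithelial genes, KRT18 also had groups that did not overlap, lower with DDX18 (796 to 897 against 918 to 1284 CPM, edgeR adjusted p = 0.86). Groups did not overlap in 11.5% of all genes tested. The part of other cell types in the results below was not tested.

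None of the 10 genes passed an adjusted p of 0.05 (edgeR quasi-likelihood test with Benjamini-Hochberg adjustment over 15144 genes), where 8 genes (0.0528%) passed over the whole table. DESeq2, which called 0.264% of all genes, and limma-voom, which called 0.0528%, also called none of the 10. The largest fold changes were those of CENPE and CENPF, which lay lower in every DDX18 library than in every control. CENPA lay higher in every DDX18 library, by a fold change smaller in size than those of CDK1 and TTK. Of the kinases, CDK1 alone had groups that did not overlap, lower with DDX18. Groups thus did not overlap in 4 of the 10 genes, against 11.5% of all genes tested. DDX18 lay below in 3 of them, against 5.71% of all genes, and above in 1, against 5.83%. Fold changes were negative in 8 of 10 genes, against 50.2% of all genes, with a median log2 fold change of -0.08 against -0.0008 over all genes. The 10 genes were read in the same 6 libraries, so these counts do not stand for 10 independent results.

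**Figure D1:**
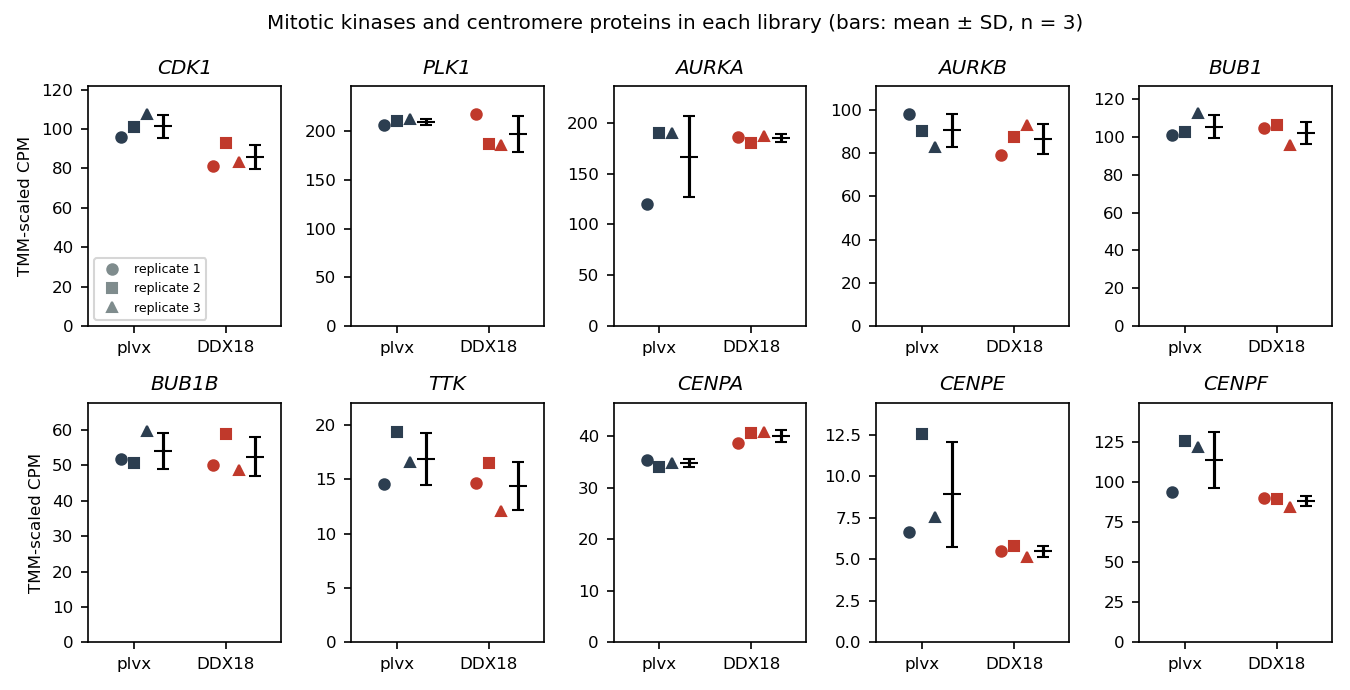
Level of each gene in every library. The y axis gives TMM-scaled CPM from 0 and the x axis the group, with a circle, square or triangle for replicate 1, 2 or 3 and a black bar for the mean ± SD (n = 3); the DDX18 points lie below all plvx points for CDK1, CENPE and CENPF and above them for CENPA.

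CDK1, the kinase that triggers mitosis (ENSG00000170312, chromosome 10, 60778331 to 60794852, plus strand), measured 81.5, 93.0 and 83.4 CPM in the DDX18 libraries and 95.9, 101 and 107 CPM in the controls. The highest DDX18 library lay just under the lowest control. The means were 85.9 ± 6.16 and 101.5 ± 5.79 CPM (SD, n = 3), a log2 fold change of -0.24 with a standard error of 0.083 (95% confidence interval -0.43 to -0.05, adjusted p = 0.841).

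PLK1, the polo-like kinase of spindle assembly and mitotic exit (ENSG00000166851, chromosome 16, 23677656 to 23690367, plus strand), measured 218, 186 and 186 CPM with DDX18 and 206, 211 and 212 CPM in the controls. DDX18 replicate 1 was the highest of all 6 libraries and the other two DDX18 libraries the lowest, so the groups overlapped. The log2 fold change was -0.09 ± 0.079 (standard error, adjusted p = 0.925). It was -0.18 without DDX18 replicate 1 and -0.05 without DDX18 replicate 2 or 3.

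AURKA, the Aurora kinase of the centrosome and spindle poles (ENSG00000087586, chromosome 20, 56369389 to 56392337, minus strand), measured 186, 180.3 and 187 CPM with DDX18 and 121, 189.8 and 189.6 CPM in the controls. In counts, plvx replicate 1 had 1870 where the other 5 libraries had 2890 to 3090. The log2 fold change of 0.15 ± 0.164 (standard error, adjusted p = 0.948) rested on that library: without plvx replicate 1 it was -0.04 (adjusted p = 0.91). AURKA and CENPA were the genes with a positive value, so without that library the fold change was negative in 9 of 10. It was negative in 6 of 10 without DDX18 replicate 3 and in 6 of 10 without plvx replicate 3. AURKB, the Aurora kinase of the chromosomal passenger complex (ENSG00000178999, chromosome 17, 8204733 to 8210600, minus strand), measured 79.2, 87.4 and 93.1 CPM with DDX18 and 98.3, 90.5 and 83.1 CPM in the controls. Its groups overlapped, with a log2 fold change of -0.07 ± 0.095 (standard error, adjusted p = 0.96). It was -0.012 without DDX18 replicate 1, -0.12 without DDX18 replicate 3, -0.0045 without plvx replicate 1 and -0.13 without plvx replicate 3. The paralogue AURKC, mainly known from germ cells, was at 0.0614 to 0.644 CPM.

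BUB1 and BUB1B had the smallest fold changes of the 10 genes. BUB1, which recruits the checkpoint and phosphorylates centromeric histone H2A (ENSG00000169679, chromosome 2, 110637698 to 110678114, minus strand), measured 105, 106 and 95.6 CPM with DDX18 and 101, 103 and 113 CPM in the controls. BUB1B, whose product BUBR1 is part of the inhibitor of the anaphase-promoting complex (ENSG00000156970, chromosome 15, 40161023 to 40221136, plus strand), measured 49.98, 58.9 and 48.6 CPM with DDX18 and 51.9, 50.6 and 59.9 CPM in the controls. Both genes had a log2 fold change of -0.04 (standard errors 0.079 and 0.109, adjusted p = 0.966 and 0.98) and overlapping groups. Their 95% confidence intervals ran from -0.23 to 0.14 for BUB1 and from -0.30 to 0.21 for BUB1B. TTK, the kinase at the head of the checkpoint, also called MPS1 (ENSG00000112742, chromosome 6, 80003887 to 80042527, plus strand), measured 14.6, 16.5 and 12.1 CPM with DDX18 and 14.6, 19.3 and 16.6 CPM in the controls. The groups overlapped, and the log2 fold change was -0.22 ± 0.157 (standard error, adjusted p = 0.898), with an interval of -0.59 to 0.14. It was -0.11 without DDX18 replicate 3 or plvx replicate 2, and -0.33 at the other end, without DDX18 replicate 2.

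CENPA (ENSG00000115163, chromosome 2, 26764289 to 26801067, plus strand) measured 38.6, 40.6 and 40.8 CPM with DDX18 and 35.4, 34.0 and 34.8 CPM in the controls. Its DDX18 libraries all lay above the controls, and its spread was small in both groups (coefficients of variation 2.96% and 2.13%). The means were 39.99 ± 1.18 and 34.7 ± 0.741 CPM (SD, n = 3), a 1.15-fold difference with a log2 fold change of 0.20 ± 0.078 (standard error, 95% confidence interval 0.02 to 0.38, adjusted p = 0.853). A neighbouring gene on the same strand, SLC35F6, shares 138 exon bases with CENPA in GENCODE 29. Its counts were 659, 1244 and 495 in the DDX18 libraries and 939, 1209 and 1278 in the controls, so its group means (799 and 1142) lay in the opposite order to those of CENPA.

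CENPE (ENSG00000138778, chromosome 4, 103105806 to 103198409, minus strand) measured 5.52, 5.80 and 5.15 CPM with DDX18 and 6.64, 12.5 and 7.58 CPM in the controls. All DDX18 libraries lay below all controls, and plvx replicate 2 stood well above every other library, with 204 counts against 82 to 123. The log2 fold change was -0.70 ± 0.247 (standard error, 95% confidence interval -1.27 to -0.13, adjusted p = 0.841). Without plvx replicate 2 it was -0.37 (adjusted p = 0.986).

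CENPF (ENSG00000117724, chromosome 1, 214603195 to 214664588, plus strand) measured 89.8, 89.6 and 84.3 CPM with DDX18 and 93.8, 125 and 122 CPM in the controls. The DDX18 libraries were close together, plvx replicate 1 lay just above them, and the other two controls were well above. The log2 fold change was -0.37 ± 0.115 (standard error, 95% confidence interval -0.64 to -0.10, adjusted p = 0.815). Without plvx replicate 1 it was -0.49 with an adjusted p of 0.188, the lowest adjusted p any of the 10 genes had with a library left out.

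**Figure D2:**
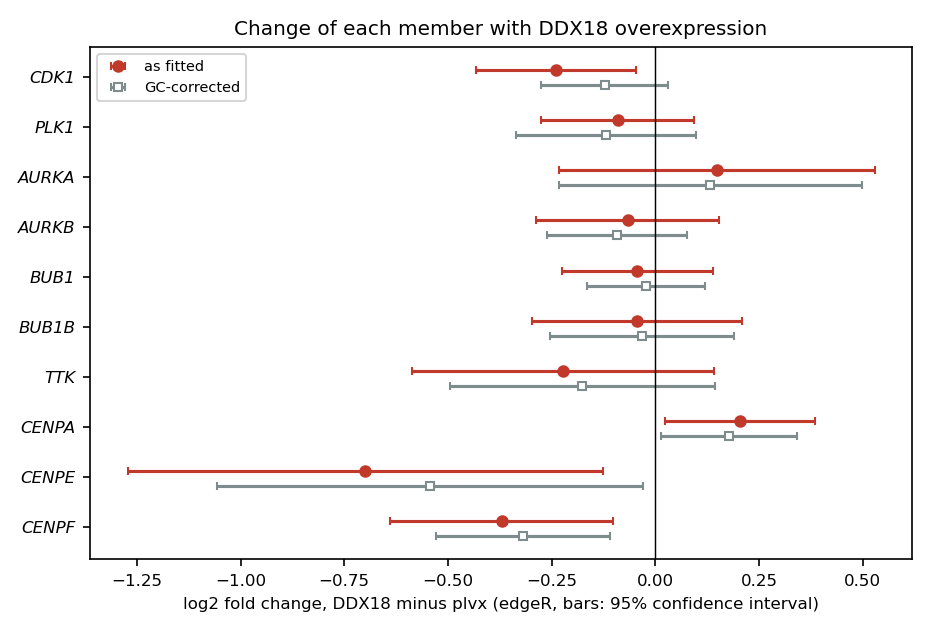
Log2 fold change of each gene, DDX18 minus plvx, with 95% confidence intervals from edgeR. Filled circles are the values as fitted and open squares the values after a correction for GC content; intervals exclude 0 for CDK1, CENPA, CENPE and CENPF as fitted and for CENPA, CENPE and CENPF after the correction, before any adjustment for the number of genes.

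At an unadjusted p under 0.05, 4 of the 10 genes passed (CDK1, CENPA, CENPE and CENPF), where 5.69% of all genes did. This count was 1 without DDX18 replicate 3, where 4.33% of all genes passed. It was 2 without plvx replicate 3 (5.18% of all genes) and 0 without plvx replicate 2 (4.51%). It was 3 without DDX18 replicate 1 (5.46%) or 2 (4.9%) and 4 without plvx replicate 1 (7.76%). Relative to each gene's own mean over the 6 libraries, the median of the 10 genes was -0.08, 0.02 and -0.13 log2 in DDX18 replicates 1, 2 and 3 and -0.04, 0.09 and 0.12 in plvx replicates 1, 2 and 3, so the groups overlapped. DDX18 replicate 3 was the lowest library for 6 of the 10 genes, among them CENPE, CENPF and TTK. The highest value of 7 genes was in plvx replicate 2 (4 genes) or replicate 3 (3 genes). The range over libraries was narrowest for PLK1 (0.23 log2) and BUB1 (0.24) and widest for CENPE (1.28), with TTK (0.67) and AURKA (0.66) between.

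**Figure D3:**
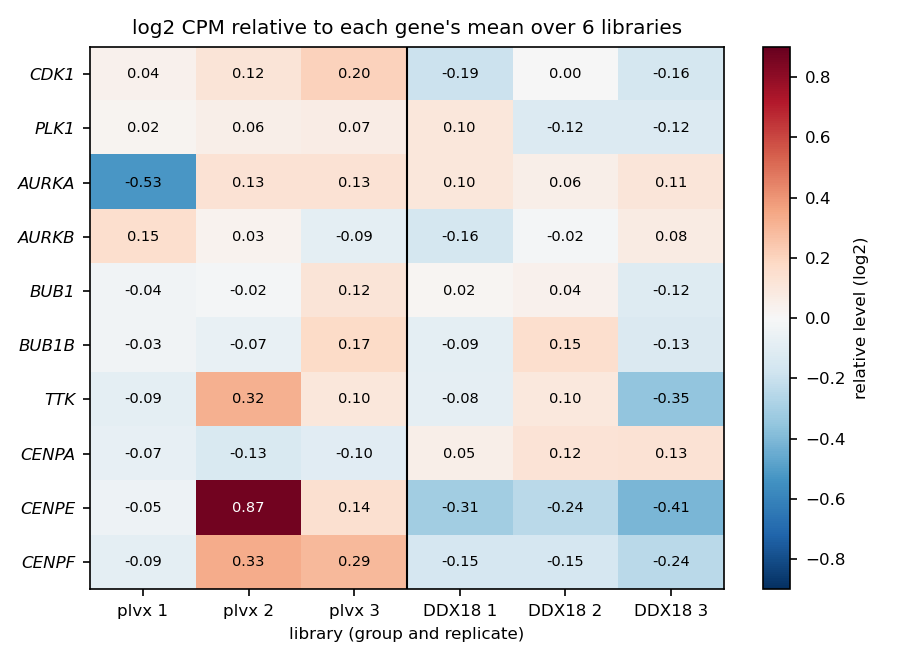
Relative level of the 10 genes in each library. Rows are genes, columns are libraries, and each cell gives log2 CPM minus the gene's mean over 6 libraries; the cells farthest from 0 are CENPE in plvx replicate 2 (0.87) and AURKA in plvx replicate 1 (-0.53), and all CENPA cells are above 0 with DDX18 and below 0 in the controls.

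Base composition moved with these values in part. The longest annotated transcripts of CENPE (35.3% GC), CDK1 (37.0%), TTK (40.8%) and CENPF (40.8%) fell in the lowest quintile of GC content among the tested genes, and these were the 4 members with the most negative fold changes. CENPA (47.8%) and AURKA (46.6%) fell in the middle quintile, and PLK1 (57.1%) and AURKB (55.6%) in the next. Over all genes of the lowest quintile the median log2 fold change was -0.08, against 0.03 in the highest. Libraries of 1 group differed in this respect as well: the lowest quintile was at -0.02, 0.02 and -0.10 log2 in DDX18 replicates 1, 2 and 3 and at -0.06, 0.06 and 0.14 in plvx replicates 1, 2 and 3. When each library's trend with GC content was removed, a step chosen after seeing the data, the log2 fold change of CDK1 went from -0.24 to -0.12 (adjusted p = 0.774) and that of CENPE from -0.70 to -0.54 (adjusted p = 0.753). CENPF changed little, to -0.32 (adjusted p = 0.697), and CENPA was at 0.18 (adjusted p = 0.753). TTK went from -0.22 to -0.18, AURKA from 0.15 to 0.13, BUB1 from -0.04 to -0.02 and BUB1B from -0.04 to -0.03. PLK1 and AURKB, negative in a quintile with a median of 0.02 over all genes, moved further from 0. PLK1 went from -0.09 to -0.12 and AURKB from -0.07 to -0.09. Groups then still did not overlap in 4 of the 10 genes, against 13.3% of all genes, and 3 of the 10 had an unadjusted p under 0.05, against 6.53% of all genes. CENPE and CENPF are also the longest of the 10, with 8612 and 10307 bases in the longest transcript against 1254 to 4135 in the others, and the part of transcript length in the result was not tested.

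**Figure D4:**
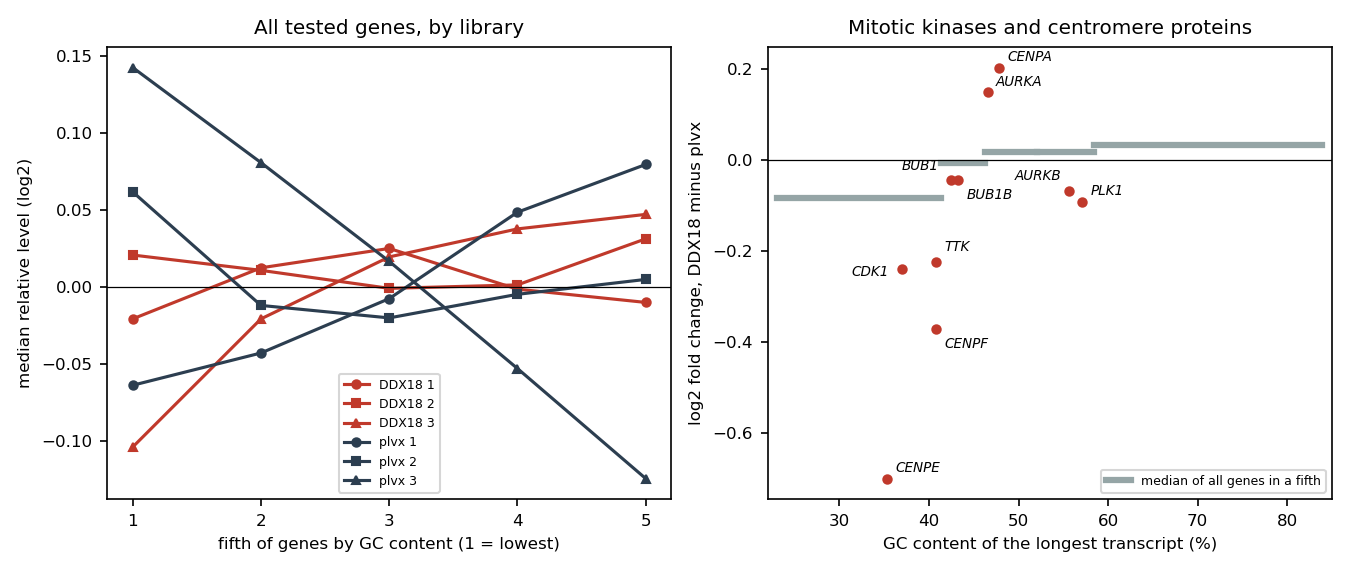
GC content and level. On the left, the median relative level (log2) of all tested genes in each quintile of GC content, by library: plvx replicate 3 falls from 0.14 to -0.12 and DDX18 replicate 3 rises from -0.10 to 0.05. On the right, the log2 fold change (DDX18 minus plvx) of each of the 10 genes against the GC content of its longest transcript, with grey bars for the median of all genes in a quintile.

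Per length, the 10 genes spanned a wide range of levels. CPM (from library totals) per kilobase of merged exons (GENCODE 29) were highest for AURKA in the controls (40.1 to 65.1), followed by PLK1 (42.2 to 44.7) and AURKB (37.2 to 42.8). The ranges of these 3 kinases overlapped. CDK1 came next (23.8 to 27.4) and lay apart from its neighbours, then CENPA (17.2 to 17.6) and BUB1 (16.4 to 18.7), which overlapped each other. BUB1B (11.3 to 13.4), CENPF (7.82 to 10.8), TTK (3.10 to 4.24) and CENPE (0.685 to 1.33) followed without overlap. The order of the means was the same in the DDX18 libraries. On the authors' FPKM scale, which implies other gene lengths, CENPF moved up from rank 8 to rank 6 of 10 in the controls, above CENPA and BUB1B. By mean CPM over the 6 libraries, without regard to length, PLK1 lay above 93.5% and CENPE above 32.1% of the genes tested.

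In 8 lists of pathway genes, drawn up with earlier results of these data known, 109 genes were tested. Of these, 1 passed the threshold, against 0.0528% of all genes tested. This was CDKN2A, which encodes the inhibitors p16 and ARF and lay at 453, 476 and 487 CPM with DDX18 and 245, 206 and 189 CPM in the controls (log2 fold change 1.15, adjusted p = 0.0131). Its adjusted p was above 0.05 when DDX18 replicate 2 (0.0683), DDX18 replicate 3 (0.0576) or plvx replicate 2 (0.125) was left out. Over the 109 genes the median log2 fold change was -0.02, with 63 negative and 46 positive values. At an unadjusted p under 0.05 there were 6 of the 109, against 5.69% of all genes tested. All DDX18 libraries lay below all controls in 8 of the 109, against 5.71% of all genes. They lay above all controls in 2, against 5.83%.

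Among the 13 cyclins and other CDK1 regulators, 7 values were negative and 6 positive (median log2 fold change -0.02), with none with an unadjusted p under 0.05. CCNB1, the cyclin that CDK1 needs for mitotic entry, measured 285.6 ± 6.34 CPM with DDX18 and 284 ± 23.2 CPM in the controls (SD, n = 3), and CCNA2, the cyclin of S and G2 phase, 100.1 ± 8.2 and 102 ± 8.68 CPM. CDC25B, a phosphatase that activates CDK1, had the smallest p of this list (140.6 ± 8.45 against 155.8 ± 11.1 CPM, adjusted p = 0.86). The activators and spindle partners of PLK1 and AURKA divided 10 negative to 3 positive with a median of -0.03. TPX2, which activates Aurora kinase A on the spindle, was at 423 ± 23.7 and 424 ± 23.9 CPM, and HMMR, a spindle-associated hyaluronan receptor, had the smallest p of this list (23.96 ± 2.68 against 31.1 ± 4.64 CPM, adjusted p = 0.841).

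The chromosomal passenger complex carries AURKB together with 3 other subunits. INCENP, its scaffold, was at 164 ± 6.15 and 159 ± 3.31 CPM with DDX18 and in controls, BIRC5 (survivin) at 79.9 ± 1.99 and 82.0 ± 2.84 CPM, and CDCA8 (borealin) at 125 ± 1.95 and 127 ± 0.972 CPM. All 3 had adjusted p of 0.961 or more. SGO2, a shugoshin that protects centromeric cohesion, had the smallest p among the 6 genes of the passenger and shugoshin list, with DDX18 libraries below all controls (5.45 ± 0.481 against 7.63 ± 1.19 CPM, adjusted p = 0.841). The checkpoint partners BUB3 (126 ± 3.94 against 129.7 ± 8.4 CPM) and MAD2L1 (48.9 ± 5.17 against 54.7 ± 4 CPM) and the anaphase activator CDC20 (349 ± 7.99 against 361 ± 26.9 CPM) had adjusted p of 0.891 or more. In this list of 11 genes 7 values were negative and 4 positive (median -0.04), and ZWILCH, of the complex that brings dynein to kinetochores, was first by p (25.6 ± 7.06 against 19.7 ± 3.09 CPM, adjusted p = 0.861).

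The 13 genes of the outer kinetochore were the pathway list with the lowest median, -0.11, and 10 of them had negative values. KNL1, the scaffold on which BUB1 and BUB1B gather, was first by p (19.4 ± 3.42 against 27.1 ± 5.28 CPM, adjusted p = 0.841), whereas NDC80, the microtubule-binding subunit, was at 28.5 ± 3.13 and 29.7 ± 1.92 CPM. The 20 inner centromere and CENPA loading genes had a median of 0.01, with 12 positive and 8 negative values. HJURP, the chaperone that deposits CENPA, was at 51.3 ± 2.57 and 49 ± 3.27 CPM. The 16 genes of the anaphase-promoting complex and separase had a median of -0.03, and ANAPC7 was first by p (90.3 ± 1.64 against 98.0 ± 3.58 CPM, adjusted p = 0.868).

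Among 17 regulators of cell-cycle transcription, CDKN2A included, 9 values were positive and 8 negative (median 0.01). FOXM1 measured 124 ± 6.99 CPM with DDX18 and 126 ± 1.47 CPM in the controls, and MYBL2 874 ± 8.65 and 837 ± 38.7 CPM (adjusted p = 0.98 and 0.934). Of 18 proliferation and S-phase genes 12 values were negative and 6 positive (median -0.06, range -0.75 to 0.37). In edgeR 4 of the 18 had an unadjusted p under 0.05, against 5.69% of all genes tested. Groups did not overlap in 2 with DDX18 below, against 5.71% of all genes, and in 1 with DDX18 above, against 5.83%. TOP2A, the topoisomerase of G2 and mitosis, was at 201 ± 15 and 228 ± 13.8 CPM (adjusted p = 0.86), and MKI67, the Ki-67 proliferation marker, at 93.1, 91.1 and 159 CPM with DDX18 and 188, 189 and 100.3 CPM in the controls (adjusted p = 0.875). MKI67 thus had 3 libraries near 100 CPM or below and 3 well above, with both groups in each set. CDK2, the kinase of S-phase entry, had the smallest p of this list (172 ± 21.4 against 133 ± 15.8 CPM, adjusted p = 0.824). Among 6 tested paralogues of the kinases, PLK3, a stress-responsive relative of PLK1, was first by p (7.99 ± 0.813 against 6.05 ± 0.559 CPM, adjusted p = 0.845).

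**Figure D5:**
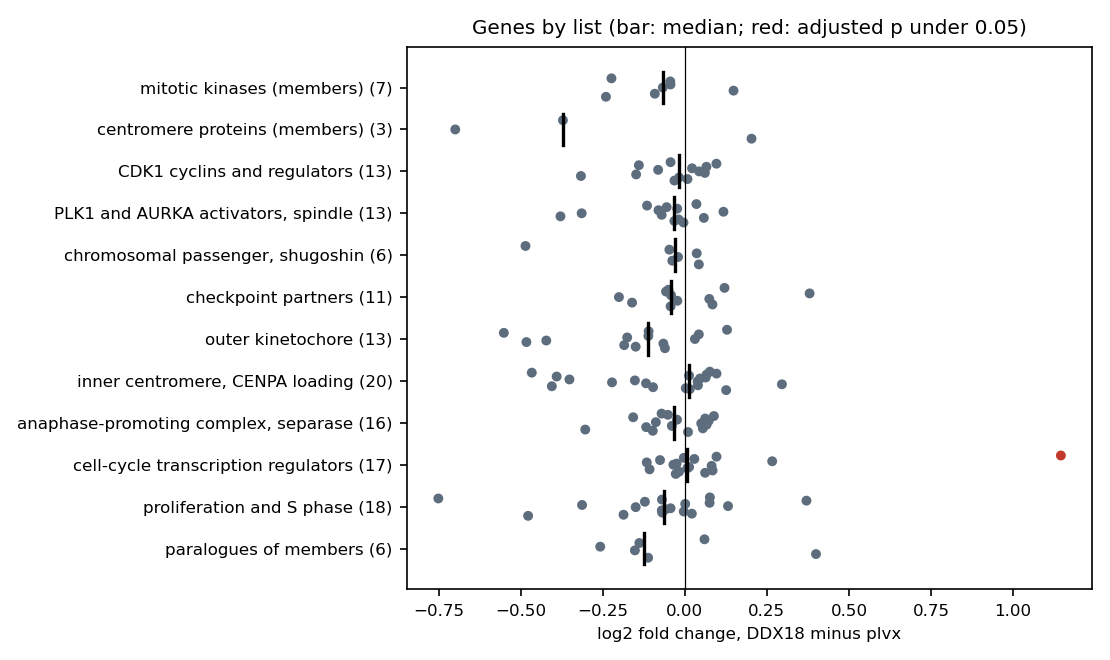
Log2 fold change (DDX18 minus plvx, x axis) of every tested gene in each list, with the number tested in brackets. A black bar is the median, and red marks an adjusted p under 0.05, which 1 gene reached (CDKN2A); medians lie between -0.12 and 0.01 in all lists except the 3 centromere proteins (-0.37).

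Few counts were assigned to the pseudogene and the overlapping genes named next, unlike SLC35F6 at CENPA. How reads that match several genes were handled is not given, so the number of shared reads is not known. The count of AURKAP1, a processed pseudogene of AURKA, was 3 to 10 per library against 1870 to 3090 for AURKA. The read-through gene BUB1B-PAK6, which shares 457 exon bases with BUB1B, held 0 to 21 counts. Genes that overlap PLK1 on the other strand, AC008870.3 and ERN2, held at most 2 counts. Whether counting used the strand is not given in the sources used here.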

How the data were processed

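Per the labels' protocols, total RNA went into SMARTER mRNA-seq libraries. The authors deposited raw counts per gene, whole numbers, and FPKM values, per the file headers; aligner, counter and strand handling: not given in the sources used here. The submitters' processing notes name mouse builds (GRCm38, mm10), but the table holds human Ensembl identifiers, and 97.6% of the 58039 found in GENCODE 29 have its GRCh38 coordinates. Coordinates are the file's, read as GRCh38. Counts were tested with edgeR 4.0.16 (R 4.3.3; filterByExpr, TMM, quasi-likelihood F-test, no covariate) over 15144 genes, with Benjamini-Hochberg adjustment. The common coefficient of variation was 15.9%. This spread limits the precision of genes with many counts, and counting noise also that of CENPE (82 to 204 counts). Replicates of a group differed by more than counting noise (chi-square over degrees of freedom 12.9 to 20.6), so all 6 were kept as separate libraries. The test was also run on counts simulated from its own fitted dispersions. These had no GC trend and no outlying library, so that run does not bear on either. Alternatives used DESeq2 1.42.0, limma 3.58.1, other scalings and filters, FPKM, a replicate block and each library left out. GC content was corrected with a loess curve per library (span 0.5) over the 15099 genes with a GENCODE transcript. Named genes are the 10 members, DDX18, 16 fixed partners and, per list, those past the threshold or else that with the smallest p; 1 such gene is not reported here. Members and lists were chosen with earlier results of these data known.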

Additional observations from a re-analysis of the deposited data

How the results depend on the processing

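None of the 10 genes was called under any of the 19 alternatives, and the median log2 fold change of the 10 stayed between -0.12 and -0.06. The number of all genes called was 8, but 4 with no expression filter, 40 with DESeq2, 5 after the GC correction, and 3 to 14 with a library left out. With the replicate number as a block it was 1, and DDX18 itself had an adjusted p of 0.153. Same-numbered libraries did not deviate together (r -0.04, 0.02 and -0.09), and 2 of 6 libraries correlated best with the library of their own number. Whether same-numbered libraries were prepared together is not given, and these correlations cannot decide it. CENPE stayed negative throughout (-0.87 to -0.24, the weakest on log2(FPKM + 1), a scale that understates changes of low genes), as did CENPF (-0.49 to -0.29) and CDK1 (-0.30 to -0.10), and CENPA stayed positive (0.18 to 0.22). Signs turned for genes near 0 and, without plvx replicate 1, for AURKA. With a library left out, AURKA ran from -0.038 to 0.25, BUB1 from -0.072 to 0.0030, BUB1B from -0.13 to 0.030, CCNA2 from -0.088 to 0.036, CCNB1 from -0.040 to 0.071, CDC20 from -0.082 to 0.014, NDC80 from -0.15 to 0.0089 and TPX2 from -0.049 to 0.039. NDC80 was at 0.00016 after the GC correction. With the GC correction and without plvx replicate 1, both chosen after seeing the data, AURKA was at -0.047, BUB3 at 0.070, HJURP at -0.00085 and INCENP at -0.030. TPX2 was at 0.0089 with library totals, 3.6e-05 under the filter of 5 CPM, and 0.0090 and 0.0091 on log2(FPKM + 1) and log2(FPKM + 0.1). CDKN2A had an adjusted p of 0.064 with no filter and 0.146 with the block. With 3 libraries a group, the 95% confidence intervals of 6 of the 10 genes covered 0, so for these neither direction was detectable. Those of the other 4 excluded 0 only before adjustment for the number of genes (edgeR adjusted p 0.815 to 0.853).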

Other observations

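In other kinetochore and centromere genes 1 or 2 libraries stood apart from the rest. These genes were chosen after their values were seen. SKA1, of the complex that couples kinetochores to microtubules, measured 7.13 CPM in DDX18 replicate 1. It was at 18.1 and 18.7 CPM in DDX18 replicates 2 and 3 and at 19.9 to 24.5 CPM in the controls. Its groups thus did not overlap, as was the case for 11.5% of all genes tested. MIS12, a scaffold subunit of the outer kinetochore, measured 7.29 CPM in DDX18 replicate 3 and 17.1 to 19.8 CPM in the other 5. CENPM, an inner centromere protein, was at 33.3 and 36.2 CPM in plvx replicates 1 and 2 and at 47.3 to 59.8 CPM in the other 4 libraries. None of these genes was called by edgeR (adjusted p = 0.87 for SKA1, 0.901 for MIS12 and 0.901 for CENPM).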
